A study of Mus musculus with 18 samples.

Results

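The uninduced mouse Dux clone was set against the uninduced human DUX4 clone across all genes, to describe how the 2 double-homeobox lines differed before either transgene was switched on. The comparison used 6 of 18 libraries, chosen by their labels alone, namely the 3 of each clone from cultures without doxycycline. Both clones came from C2C12, an established line of mouse myoblasts that can fuse into muscle fibres. Each carried a codon-altered double-homeobox transgene under doxycycline control, mouse Dux in one clone and human DUX4 in the other. A clone with a firefly luciferase transgene was the study's control, and its 3 uninduced libraries are given beside the other 6. All cultures grew with puromycin, which kept cells carrying the transgene, and uninduced cultures were harvested at the 36 h time point of the induced ones (2 µg/ml doxycycline). The 3 libraries of a group came from separate cultures per the labels. Each transgene was held by a single clonal line. The line, its isolation as a clone and any transgene activity without doxycycline thus cannot be told apart in what follows. P-values rest on the spread between cultures within a group, in a fit shared by all 18 libraries in 6 groups, and not on the spread between clones.

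C2C12 cells follow the program of the muscle stem cell. Pax7 marks the stem cell, Myf5 and MyoD commit it to the muscle lineage, and myogenin together with MyoD starts differentiation, when cells leave the cell cycle and make sarcomere proteins. Mouse Dux and human DUX4 are transcription factors of the early embryo, and Dux switches on genes of the 2-cell stage such as the Zscan4 family. DUX4 in human skeletal muscle is linked to facioscapulohumeral muscular dystrophy.

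RNA-seq reads were counted per gene, and 13602 of 24028 genes passed a count filter over all 6 groups of the series and were tested. Some of them had few or no counts in the 2 compared clones. With only the 6 compared libraries 12307 genes passed. The libraries held 11010586, 16208714 and 14714757 counts for the mouse Dux clone, 15743008, 15238304 and 12871469 for the human DUX4 clone, and 14418920 to 17179642 for the luciferase clone. Levels are CPM, each count taken relative to its library's total after TMM scaling, and a fold change is the mouse Dux clone over the human DUX4 clone. Among the 9 uninduced libraries the first principal component held 62.7% of the variance and the second 32.7%, and the 3 clones lay apart. In a chi-square test of counts over genes, mouse Dux library 1 stood apart from its replicates, at 5.16 and 5.23 chi-square per degree of freedom, against 1.26 between libraries 2 and 3 and 1.66 to 2.45 among the human DUX4 libraries. Relative to the mean of libraries 2 and 3, its median log2 level was 0.07 in genes with transcripts of 174 to 2332 bases and −0.08 in genes with transcripts of 4974 bases and more. Without this library 1252 genes were strongly called, against 1231 with it, and 1185 were shared. The shared fit also drew on the induced libraries. There library 1 of the mouse Dux clone had 34.1 and 36.5 chi-square per degree of freedom against its replicates.

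Both clones had markers of myoblasts, at different sums, but not all of them. Pax7 had 1 count in the human DUX4 clone and Myf5 11 counts in the mouse Dux clone. Of the 7 markers 5 were called higher and 2 lower in the mouse Dux clone. Calls were common, with 33.1% of all genes tested called higher and 33.3% called lower. Des alone had 690, 732 and 732 CPM in mouse Dux libraries and 220, 209 and 208 CPM in human DUX4 libraries. Myod1, Myf5, Pax7, Cdh15, Des, Megf10 and Vcam1 together made 1235 to 1308 CPM in mouse Dux libraries, 650.0 to 680.6 CPM in human DUX4 libraries and 2526 to 2564 CPM in luciferase libraries. The 6 markers of differentiated muscle summed to 11.1 to 13.1 CPM in the mouse Dux clone and 10.9 to 12.6 CPM in the human DUX4 clone, while the luciferase clone had 792 to 857 CPM. Dpp4, Tcf21, Ibsp, Acan, Cdh5, Ptprc, Adgre1, Epcam, Krt18 and Sox10, which define fibroblast-like, bone, cartilage, endothelial, immune, epithelial and glial cells, had no count in the 6 libraries. Other markers of fibroblasts, osteoblasts, fat and neural cells were present, with sums of 303 to 321, 113 to 116, 8.91 to 9.75 and 22.4 to 24.8 CPM in mouse Dux libraries, and of 285 to 297, 101 to 111, 10.7 to 13.1 and 32.6 to 36.3 CPM in human DUX4 libraries. The full sets of endothelial, immune and epithelial markers summed to 0.058 to 0.17, 0.849 to 1.53 and 0.696 to 1.08 CPM in mouse Dux libraries, and to 0.125 to 0.192, 1.69 to 1.79 and 0.688 to 1.13 CPM in human DUX4 libraries. Among them the epithelial cadherin gene Cdh1 had 38 counts in the mouse Dux clone against 11 in the human DUX4 clone and was called higher (adjusted p = 1.00e-03), and the keratin gene Krt8, not tested, had 2 counts in the mouse Dux clone against 26 in the human DUX4 clone. In bulk RNA, fewer cells of a type and less RNA per cell cannot be told apart.

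The clones differed in the level of most genes, by small amounts for most and by 4-fold or more for 9.05% of those tested. Of the 13602 genes tested 9030 (66.4%) were called at an adjusted p under 0.05 in edgeR's quasi-likelihood test, 4505 (33.1%) higher and 4525 (33.3%) lower in the mouse Dux clone. The 3 libraries of the mouse Dux clone lay all above those of the human DUX4 clone for 36.1% of genes and all below for 36%. Libraries that did not overlap were thus common among all genes, and set no named gene apart. The median absolute log2 fold change was 0.42. A gene was strongly called when its log2 fold change was also at least 2 in size, that is 4-fold, and 801 (5.89%) were strongly higher against 430 (3.16%) strongly lower. Called genes that differed by at least 2-fold were 1579 (11.6%) higher and 1030 (7.57%) lower. A test against a 2-fold difference passed 1105 genes (8.12%) as higher and 674 (4.96%) as lower. The central 90% of log2 fold changes ran between −1.52 and 2.48, so the tail was longer on the side of the mouse Dux clone.

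Myod1 and Fmo1 were higher and Spp1 lower in the mouse Dux clone. These 3 genes were named for the clones with earlier results of these data known. Myod1 (Entrez 17927; chromosome 7, 46376474 to 46379092 in GRCm38.p6, the build of all positions given), the master regulator of the muscle lineage, had 129.8, 119 and 120 CPM in the mouse Dux libraries, against 26.5, 25.8 and 26.5 CPM in the human DUX4 libraries (log2 fold change 2.23, SE 0.0846, adjusted p = 2.55e-14). The luciferase clone had 195 ± 3.52 CPM (SD, n = 3), so the human DUX4 clone held the lowest Myod1 of the 3 clones. Fmo1 (Entrez 14261; chromosome 1, 162829561 to 162866610), a flavin monooxygenase that oxidises drugs and other foreign compounds, stood at 198, 209 and 201 CPM in mouse Dux libraries and 34.3, 33.3 and 31.8 CPM in human DUX4 libraries (log2 fold change 2.61, SE 0.0581, adjusted p = 1.01e-17). Luciferase libraries had 5.49 ± 0.177 CPM. Spp1 (Entrez 20750; chromosome 5, 104435111 to 104441053), which encodes the secreted matrix protein osteopontin, had 346, 341 and 342 CPM in the mouse Dux clone and 1124, 1121 and 1088 CPM in the human DUX4 clone (log2 fold change −1.69, SE 0.0537, adjusted p = 1.55e-15). For Spp1 the human DUX4 clone lay close to the luciferase clone (1016 ± 5.48 CPM) and the mouse Dux clone below both. For none of the 3 genes did the libraries of the clones overlap, where 36.1% of all genes lay wholly higher and 36% wholly lower.

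**Figure D1:**
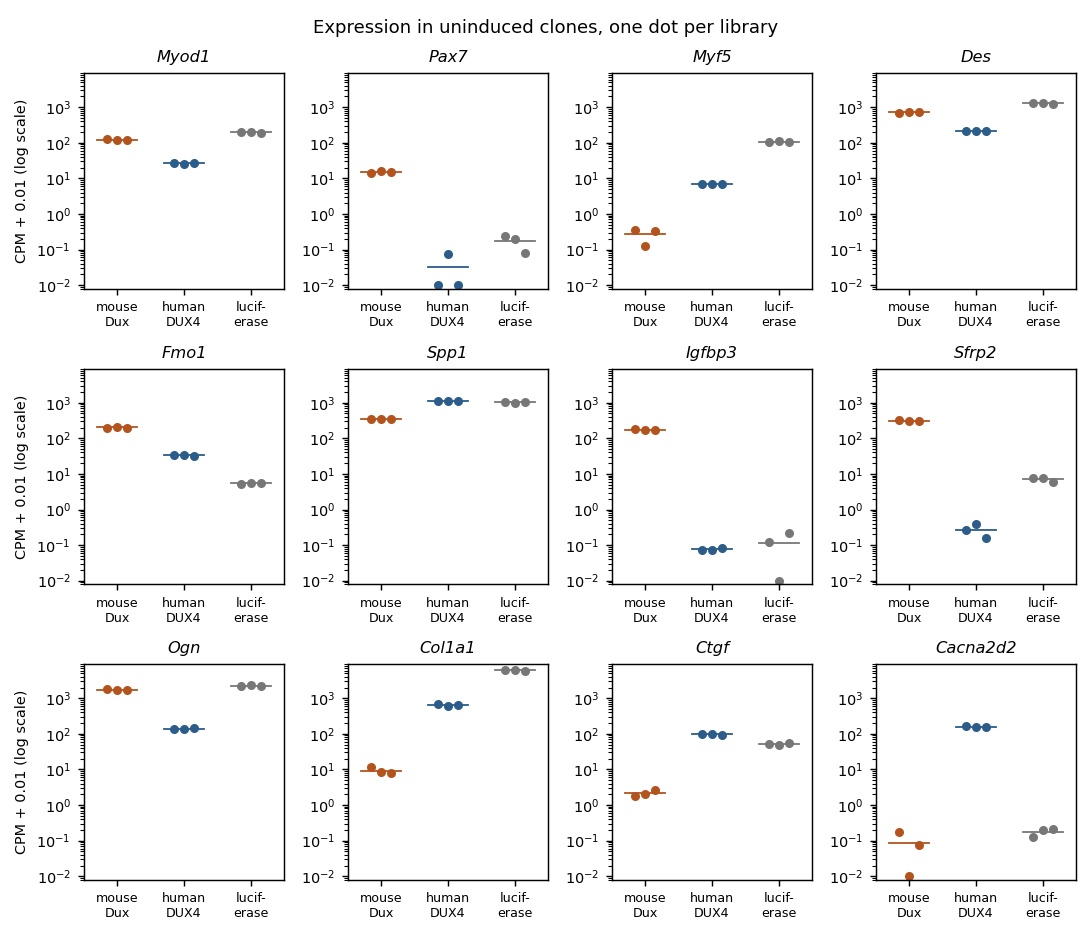
CPM plus 0.01 on a log axis for 12 genes in the uninduced libraries of the mouse Dux, human DUX4 and luciferase clones, with 1 dot per library and a line at the mean. Igfbp3 stands near 173 CPM in the mouse Dux clone and under 1 CPM in the other clones, and Cacna2d2 stands high in the human DUX4 clone alone, while the dots of a clone lie close together except at the lowest levels.

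Some genes with clear counts in one clone had almost none in the other. In the human DUX4 clone 72 genes had at most 3 counts over its 3 libraries while the mouse Dux clone averaged 2 CPM or more, and 26 of them had no count. In the mouse Dux clone 42 genes had at most 3 counts while the human DUX4 clone averaged 2 CPM or more, and 10 of them had none. The luciferase clone differed between these sets: it had at most 3 counts for 17 of the 72 genes and 2 CPM or more for 27, and at most 3 counts for 27 of the 42 genes and 2 CPM or more for 4. Folds for such genes are ratios with a 95% exact Clopper-Pearson interval, or, where a clone had no count, lower bounds that set the summed count of its libraries to 3. Both cover counting error only, and not the spread between cultures. PCR copies are not independent molecules, so even the counting error may be understated.

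Igfbp3 had the highest CPM of the genes present in the mouse Dux clone and almost absent from the human DUX4 clone. It encodes a secreted protein that binds insulin-like growth factors (Entrez 16009; chromosome 11, 7206086 to 7215498). The mouse Dux libraries held 7670 counts (183, 168 and 167 CPM) and the human DUX4 libraries 3 counts, 1 in each, a ratio of 2564, 95% exact interval 877 to 12440. The luciferase libraries held 5 counts. Vldlr, a lipoprotein receptor, had 67.1, 59.5 and 64.4 CPM in mouse Dux libraries and 1 count in all human DUX4 libraries (ratio 2833, 95% exact interval 508 to 112000), with 30.8 ± 0.737 CPM in luciferase libraries. Fgfr4, a fibroblast growth factor receptor of muscle progenitors, had 44.6, 42.7 and 44.4 CPM in mouse Dux libraries against 2 counts in human DUX4 libraries (ratio 982, 95% exact interval 272 to 8118). Fgf10, which encodes a fibroblast growth factor, had 21.2, 18.8 and 18.4 CPM in the mouse Dux clone against 1 count in the human DUX4 clone (ratio 865, 95% exact interval 155 to 34190). Both genes were counted in the luciferase clone too, with 544 counts of Fgfr4 and 398 of Fgf10. Scara3, a scavenger receptor-like gene, had 963 counts in the mouse Dux clone, at least 322-fold higher than the human DUX4 clone, which had none, and the luciferase clone had 1 count. The cathepsin gene Ctsh, a lysosomal protease, was at least 216-fold higher on the same terms, the regulator of G-protein signalling Rgs17 at least 174-fold, the RNA-binding protein gene Khdrbs3 at least 170.5-fold, and the receptor adaptor gene Grb14 at least 159.8-fold. The luciferase clone had 660 counts of Rgs17, 605 of Khdrbs3 and 220 of Grb14, and 51 of Ctsh. The ceramide synthase gene Cers4 (ratio 1485, 95% exact interval 266 to 58710), the phosphatase inhibitor gene Ppp1r14c (ratio 894, 95% exact interval 247 to 7385) and the carbonic anhydrase gene Car2 (ratio 969.9, 95% exact interval 174 to 38350) had ratios of the same order, and Pax7, described below, is also of this kind.

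Cacna2d2, an auxiliary subunit of voltage-gated calcium channels (Entrez 56808; chromosome 9, 107399733 to 107529346), had the highest CPM of the genes present in the human DUX4 clone and almost absent from the mouse Dux clone. Its counts were 3 over the mouse Dux libraries and 7072 over the human DUX4 libraries, where it reached 162, 158 and 151 CPM. The ratio of the human DUX4 clone over the mouse Dux clone was 2350, 95% exact interval 804 to 11400, and ratios for the next genes run in that direction too. The aldehyde oxidase gene Aox3 (chromosome 1, 58113135 to 58202221) had 2 counts in the mouse Dux clone against 80, 83.5 and 73.5 CPM in the human DUX4 clone (ratio 1772, 95% exact interval 490.1 to 14640). Slitrk6, a neuronal membrane protein gene, had 1 count in the mouse Dux clone against 1589 in the human DUX4 clone (ratio 1584, 95% exact interval 284 to 62620). The human DUX4 libraries thus held nearly all counts of these 3 genes. Bpifb4, of a lipid-binding protein family, had 3 in the mouse Dux clone against 2302 in the human DUX4 clone (ratio 765, 95% exact interval 262 to 3713). Tnfaip6, a hyaluronan-binding protein gene, had 3 in the mouse Dux clone against 3281 in the human DUX4 clone (ratio 1090, 95% exact interval 373 to 5290). The potassium channel gene Kcnq3 (ratio 993, 95% exact interval 178 to 39260), the cytochrome P450 gene Cyp2j12 (ratio 687, 95% exact interval 123 to 27170), the leukotriene receptor gene Ltb4r1 (ratio 620.2, 95% exact interval 111 to 24530) and the lectin receptor gene Clec12a (ratio 479.9, 95% exact interval 164 to 2330) followed. Luciferase libraries had no more than 8 counts for any gene named in this paragraph up to here. Vip, which encodes a neuropeptide, had 0, 0 and 0.255 CPM in mouse Dux libraries and 29.3, 27.2 and 28.7 CPM in human DUX4 libraries (log2 fold change −8.18, SE 0.291). Enpp6, a phosphodiesterase gene, had 0.17, 0.058 and 0.0637 CPM in the mouse Dux clone against 30.9, 30.4 and 29.9 CPM in the human DUX4 clone (log2 fold change −8.28, SE 0.221).

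To show what lies before a gene on either side of this divide, the 250 bases before the RefSeq start of Ror1 and of Ltb4r1 are printed 5′ to 3′ in the direction of transcription, with each CG in capitals (RefSeq, GRCm38.p6). Both genes have 1 listed start, on the plus strand, and were chosen after their values were seen. Each window ends before the annotated start of its gene, and its overlap with transcripts of other genes is not shown here. Ror1, a receptor for Wnt5a (chr4:100095541-100095790), had 346 counts in the mouse Dux clone and none in the human DUX4 clone. Ltb4r1, the leukotriene receptor (chr14:55765712-55765961), had 1 count in the mouse Dux clone and 622 in the human DUX4 clone. The Ror1 window holds 8 CG, a number that 43.0% of 32851 listed mouse promoters reach, and the Ltb4r1 window holds 3, which 71.0% reach, while the median promoter holds 6. Methylation of these windows was not measured.
Ror1: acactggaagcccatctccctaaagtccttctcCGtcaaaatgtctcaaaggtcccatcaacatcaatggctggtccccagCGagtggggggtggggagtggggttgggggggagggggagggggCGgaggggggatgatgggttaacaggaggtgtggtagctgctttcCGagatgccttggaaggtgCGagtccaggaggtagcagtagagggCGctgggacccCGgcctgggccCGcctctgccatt
Ltb4r1: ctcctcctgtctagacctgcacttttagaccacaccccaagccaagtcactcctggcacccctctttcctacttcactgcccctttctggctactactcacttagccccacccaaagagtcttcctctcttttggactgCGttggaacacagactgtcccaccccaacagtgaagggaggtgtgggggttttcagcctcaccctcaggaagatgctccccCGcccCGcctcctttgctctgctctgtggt

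Regulators of the muscle lineage were mostly higher in the mouse Dux clone. Of 33 myogenic regulators and myoblast genes listed 29 were tested, 2 of them with at most 3 counts in both clones. Of the 29, 19 (65.5%, against 33.1% of all genes) were called higher and 6 (20.7%, against 33.3%) lower. Their median log2 fold change was 0.74, against 0.0035 over all genes. Pax7 (chromosome 4, 139737059 to 139833530), the transcription factor of muscle stem cells, had 13.8, 16.3 and 15.3 CPM in mouse Dux libraries and a single count in all human DUX4 libraries (ratio 685, 95% exact interval 122 to 27100), with 0.161 ± 0.0831 CPM in luciferase libraries. Myf5 (chromosome 10, 107482908 to 107486927), which acts beside MyoD in commitment, went the other way, with 0.34, 0.116 and 0.319 CPM in mouse Dux libraries and 6.94, 7.12 and 6.87 CPM in human DUX4 libraries (log2 fold change −4.78, SE 0.26, adjusted p = 5.17e-12). The luciferase clone had 105 ± 3.62 CPM of Myf5, above both. Des, the intermediate filament desmin, was chosen after its values were seen and had 689.7, 732 and 732 CPM in the mouse Dux clone against 220.1, 209 and 208 CPM in the human DUX4 clone (log2 fold change 1.76, SE 0.054, adjusted p = 9.74e-16). The fusion gene Tmem8c, which encodes the myoblast fusion protein myomaker, had 4.16, 4.47 and 4.27 CPM in mouse Dux libraries against 0.876, 0.641 and 0.905 CPM in human DUX4 libraries (log2 fold change 2.41, SE 0.216), low beside the 77.7 ± 4.59 CPM of the luciferase clone. The 6 called lower included Megf10, a receptor of satellite cells (log2 fold change −0.79, SE 0.0833). Vgll3, a cofactor of TEAD transcription factors, was another (log2 fold change −0.81, SE 0.0631).

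Sarcomere genes summed to less in both clones than in the luciferase clone, and their direction between the clones depended on the gene. Of 46 sarcomere and contraction genes listed 41 were tested, and 16 (39.0%, against 33.1% of all genes) were higher and 7 (17.1%, against 33.3%) lower, with a median log2 fold change of 0.61. Their summed level went the other way, at 1452, 1442 and 1428 CPM in mouse Dux libraries, 2153, 2092 and 2115 CPM in human DUX4 libraries and 5759 to 5919 CPM in luciferase libraries. The abundant tropomyosin genes Tpm1 and Tpm2, chosen after their values were seen, were among the lower ones (log2 fold changes −0.81 and −0.51). The slow troponin T gene Tnnt1 had 34.5, 29.7 and 30.8 CPM in mouse Dux libraries against 4.63, 3.78 and 4.98 CPM in human DUX4 libraries (log2 fold change 2.83, SE 0.101, adjusted p = 1.03e-14). Ryr1, the calcium release channel of skeletal muscle, had 5.09, 4.7 and 6.82 CPM in the mouse Dux clone against 0.626, 0.321 and 0.83 CPM in the human DUX4 clone (log2 fold change 3.24, SE 0.253). Both genes were higher in every mouse Dux library, as 36.1% of all genes were. The myosin light chain gene Myl1 was lower, at 0.424, 0.29 and 0.446 CPM in the mouse Dux clone and 5.94, 7.05 and 6.26 CPM in the human DUX4 clone (log2 fold change −4.05, SE 0.233, adjusted p = 1.26e-11). All 3 stood below the luciferase clone, which had 67.6 ± 2.75 CPM of Tnnt1, 102 ± 4.52 CPM of Ryr1 and 254 ± 2.23 CPM of Myl1.

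Genes of the neuromuscular synapse were higher as a group. All 9 acetylcholine receptor and synapse genes tested, of 10 listed, were called higher, where 33.1% of all genes were. Their median log2 fold change was 1.19. Together they made 1091, 1102 and 1127 CPM in the mouse Dux libraries, 611, 612 and 616 CPM in the human DUX4 libraries and 1364 to 1418 CPM in the luciferase libraries. Chrng, the embryonic gamma subunit of the receptor, had 27.8, 28 and 30.6 CPM in mouse Dux libraries against 8.26, 7.18 and 8.37 CPM in human DUX4 libraries (log2 fold change 1.86, SE 0.0875, adjusted p = 5.71e-13). Dok7, an activator of the synapse-organising kinase MuSK, had 5.01, 4.7 and 4.97 CPM in the mouse Dux clone against 1.44, 1.54 and 1.74 CPM in the human DUX4 clone (log2 fold change 1.64, SE 0.202). The call of Ache, the enzyme that breaks down acetylcholine, ended without human DUX4 library 1 (adjusted p = 0.0524) or library 2 (adjusted p = 0.0510).

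**Figure D2:**
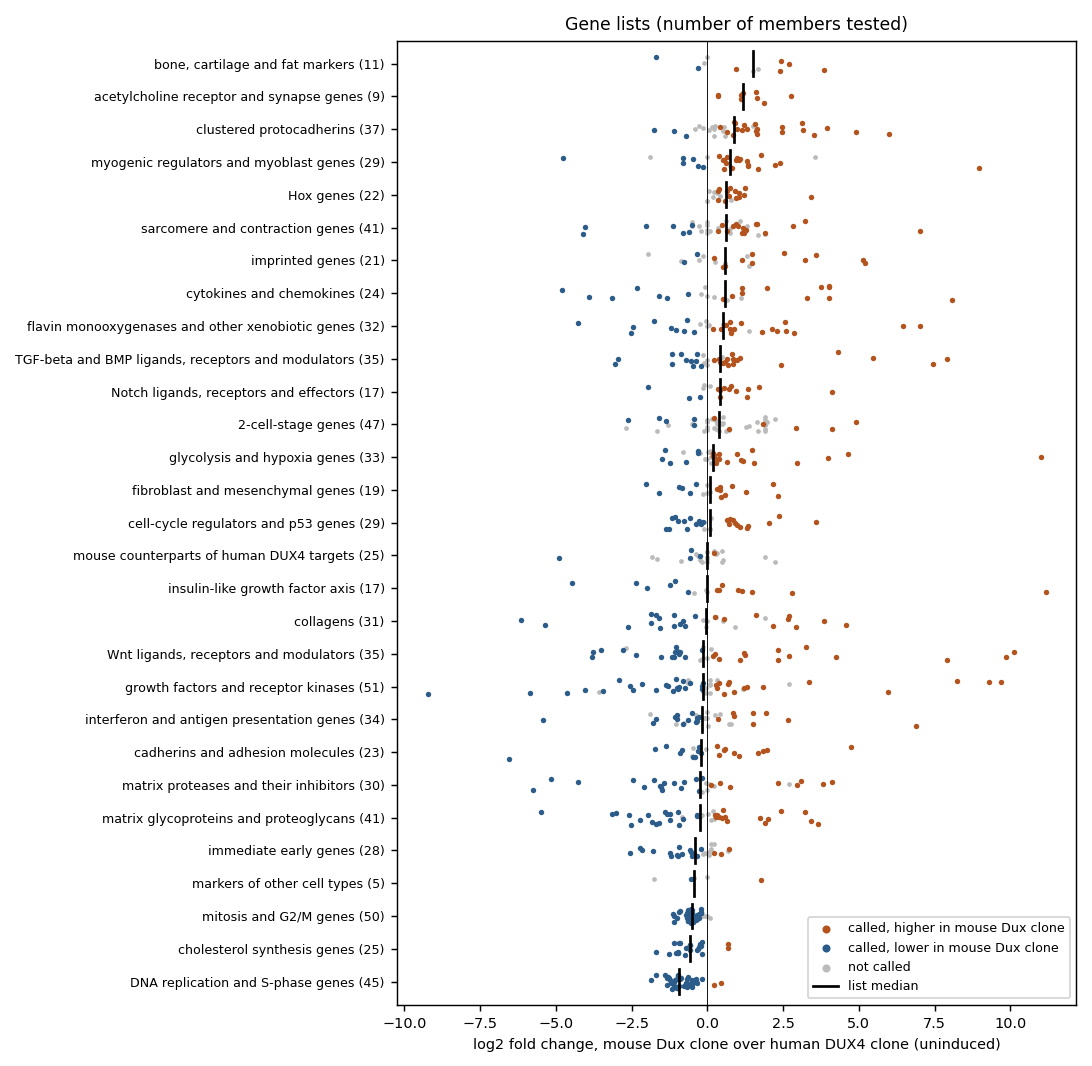
Log2 fold change of the mouse Dux clone over the human DUX4 clone, uninduced, for the tested members of 29 gene lists, with 1 dot per gene coloured by its call and a black line at the list median. Replication, mitosis and cholesterol genes lie almost wholly left of 0 and acetylcholine receptor genes wholly right of it, while most other lists spread to both sides. Positions of genes with almost no count in a clone depend on the fit.

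Cell cycle genes were lower in the mouse Dux clone. Of 45 DNA replication and S-phase genes 43 (95.6%, against 33.3% of all genes) were called lower and 2 (4.44%, against 33.1%) higher. The median log2 fold change of the list was −0.95. Of the 43, 10 passed the test against a 2-fold difference, where 4.96% of all genes passed as lower. Cdc6, which loads the replicative helicase, had 7.13, 10.6 and 7.71 CPM in mouse Dux libraries and 31, 31.3 and 31.4 CPM in human DUX4 libraries (log2 fold change −1.86, SE 0.118, adjusted p = 5.48e-11). Orc1, of the origin recognition complex, had 5.01, 4.82 and 3.25 CPM in mouse Dux libraries against 14.8, 14.2 and 13.3 CPM in human DUX4 libraries (log2 fold change −1.70, SE 0.141). The thymidine kinase gene Tk1 had 66.7, 69.8 and 68 CPM in the mouse Dux clone against 177, 175 and 184 CPM in the human DUX4 clone (log2 fold change −1.39, SE 0.072). No library of one clone reached the level of the other for these genes, as was so in this direction for 36% of all genes. Of the 2 higher genes, Gins3 belongs to the GINS complex (log2 fold change 0.44, SE 0.094). The other was Orc6 of the origin recognition complex (log2 fold change 0.23, SE 0.081), whose call ended without mouse Dux library 1 (adjusted p = 0.0536) or human DUX4 library 3 (adjusted p = 0.0572).

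Mitosis genes were lower too, by a smaller median. Of 50 mitosis and G2/M genes 44 (88.0%, against 33.3% of all genes) were lower and the other 6 not called. The median log2 fold change of the list was −0.52, and 1 gene passed the test against 2-fold, where 4.96% of all did as lower. Cdk1, the kinase that drives entry into mitosis, had 67.1, 69.3 and 69.2 CPM in the mouse Dux clone and 141, 151 and 145 CPM in the human DUX4 clone (log2 fold change −1.09, SE 0.071, adjusted p = 8.21e-11). Birc5, the survivin of the chromosomal passenger complex, had 69.2, 68.3 and 65.9 CPM in mouse Dux libraries against 145, 148 and 146 CPM in human DUX4 libraries (log2 fold change −1.11, SE 0.0838). The kinesin gene Kif18b had 37.9, 37.2 and 36.5 CPM in the mouse Dux clone against 80.4, 83 and 79.5 CPM in the human DUX4 clone (log2 fold change −1.12, SE 0.0522). Both clones lay above the luciferase clone in these lists. Replication genes had a median log2 level over the luciferase clone of 1.10 in the mouse Dux clone and 2.12 in the human DUX4 clone, and mitosis genes one of 1.496 in the mouse Dux clone and 1.97 in the human DUX4 clone, in comparisons that share the uninduced libraries with the main one. The luciferase libraries also held the high sum of differentiated muscle markers given above, and its part in these levels was not tested.

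Regulators of the cycle divided. Of 29 tested cell-cycle regulators and p53 genes (31 listed) 12 (41.4%, against 33.1% of all genes) were higher and 12 (41.4%, against 33.3%) lower. Cdkn1c, an imprinted inhibitor of cyclin-dependent kinases, had 5.77, 6.27 and 5.93 CPM in mouse Dux libraries and 0.626, 0.385 and 0.453 CPM in human DUX4 libraries (log2 fold change 3.59, SE 0.293, adjusted p = 2.18e-09). The D-type cyclin gene Ccnd2 was higher (log2 fold change 2.37, SE 0.183) and the kinase gene Cdk6, a partner of D-type cyclins, was lower (log2 fold change −1.27, SE 0.226), as was the polo-like kinase gene Plk3 (log2 fold change −1.35, SE 0.107).

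Genes of cholesterol synthesis and its control were lower with few exceptions. Of 25 genes 23 (92.0%, against 33.3% of all genes) were lower and 2 (8.0%, against 33.1%) higher, with a median log2 fold change of −0.56. Sqle, the squalene epoxidase of the pathway, had 267, 259.9 and 253 CPM in mouse Dux libraries and 822, 834 and 839 CPM in human DUX4 libraries (log2 fold change −1.68, SE 0.0508, adjusted p = 7.82e-16). Luciferase libraries had 204 ± 4.32 CPM. Lss, which closes the sterol ring, had 88.5, 94.3 and 95.5 CPM in mouse Dux libraries against 202, 205 and 194 CPM in human DUX4 libraries (log2 fold change −1.11, SE 0.0636). Stard4, a sterol carrier, had 46.4, 46.2 and 44.1 CPM in the mouse Dux clone against 109, 117 and 104 CPM in the human DUX4 clone (log2 fold change −1.27, SE 0.0706). The libraries of the clones did not overlap for any of the 3, as for 36% of all genes in this direction. One of the 2 higher genes was Tm7sf2, a sterol reductase (log2 fold change 0.68, SE 0.09). The list had a median log2 level over the luciferase clone of 1.03 in the mouse Dux clone and 1.70 in the human DUX4 clone, which again share the uninduced libraries.

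**Figure D3:**
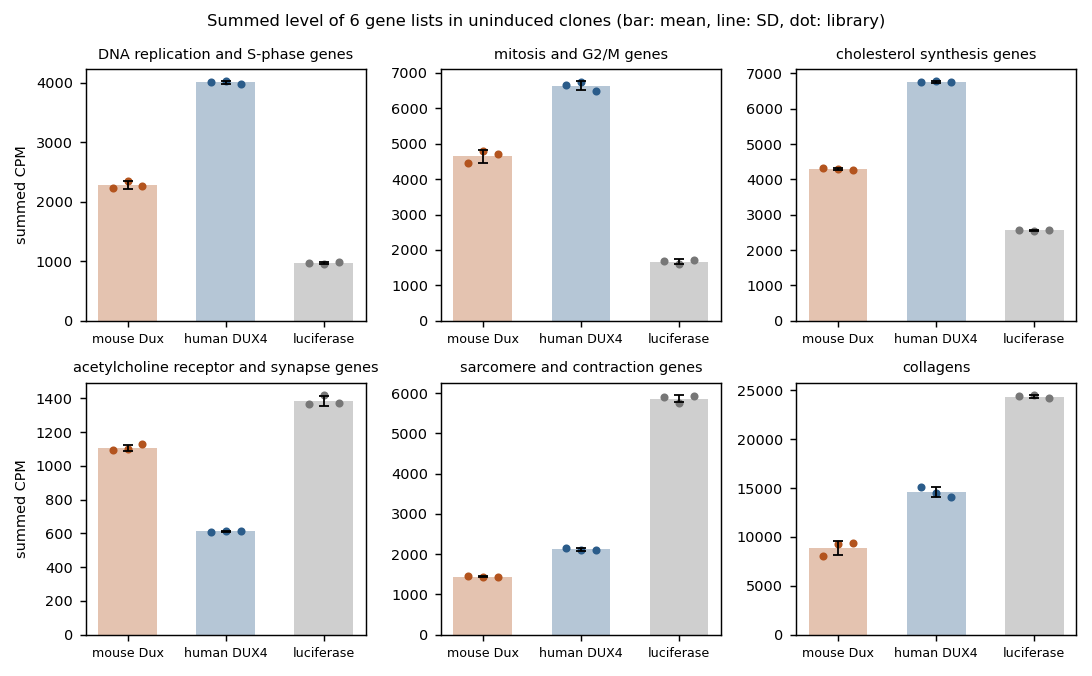
Summed CPM of 6 gene lists in each uninduced library of the mouse Dux, human DUX4 and luciferase clones, with bars at the mean, lines for the SD over 3 libraries and 1 dot per library. Replication, mitosis and cholesterol sums are highest in the human DUX4 clone and lowest in the luciferase clone, while the acetylcholine receptor sum is lowest in the human DUX4 clone.

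Growth factors, their receptors and their binding proteins differed in both directions. Of 17 tested genes of the insulin-like growth factor axis (18 listed) 8 (47.1%, against 33.1% of all genes) were higher and 6 (35.3%, against 33.3%) lower. Beside Igfbp3, described above, Igfbp5 was higher, at 1416, 1519 and 1533 CPM in mouse Dux libraries and 218, 214 and 207 CPM in human DUX4 libraries (log2 fold change 2.80, SE 0.133, adjusted p = 6.65e-13). Luciferase libraries had 2391 ± 71 CPM. Igfbp4 was lower, at 0.509, 0.464 and 0.319 CPM in the mouse Dux clone against 9.45, 9.81 and 9.13 CPM in the human DUX4 clone (log2 fold change −4.45, SE 0.222, adjusted p = 1.42e-12). Both genes encode secreted binding proteins of the same family, so its members differed in direction. Of 58 growth factors and receptor kinases listed 51 were tested. Of these 15 (29.4%, against 33.1% of all genes) were higher and 23 (45.1%, against 33.3%) lower. The lower ones included Epha3, an ephrin receptor with no count in the mouse Dux clone and 220 in the human DUX4 clone, at least 73.1-fold lower in the mouse Dux clone. Pdgfb, a platelet-derived growth factor chain, had 0.509, 0.464 and 0.446 CPM in mouse Dux libraries against 25.6, 29.4 and 28.4 CPM in human DUX4 libraries (log2 fold change −5.86, SE 0.133, adjusted p = 1.29e-17). Ret, the receptor of GDNF-family ligands, had 1.02, 1.1 and 1.4 CPM in mouse Dux libraries against 29.9, 31.8 and 26.9 CPM in human DUX4 libraries (log2 fold change −4.63, SE 0.156). These 3 genes were lower in every mouse Dux library, as 36% of all genes were.

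The direction of Wnt genes depended on the gene, as it did among all genes. Of 47 ligands, receptors and modulators listed 35 were tested, and 14 (40.0%, against 33.1% of all genes) were higher and 15 (42.9%, against 33.3%) lower, with a median of −0.15. Sfrp2 (chromosome 3, 83765750 to 83774314), a secreted frizzled-related protein that binds Wnt ligands, had 326, 304 and 302 CPM in mouse Dux libraries and 0.25, 0.385 and 0.151 CPM in human DUX4 libraries (log2 fold change 10.14, SE 0.172, adjusted p = 3.10e-19), against 7.01 ± 1.07 CPM in luciferase libraries. Ror1, shown above with the bases before its start, had 6.71, 7.66 and 8.6 CPM in the mouse Dux clone and no count in the human DUX4 clone (at least 116-fold higher). Sfrp4, of the same family as Sfrp2, was lower, at 0.424, 0.696 and 0.51 CPM in the mouse Dux clone against 5.75, 6.67 and 7.24 CPM in the human DUX4 clone (log2 fold change −3.53, SE 0.214). The ligand gene Wnt10a was lower too, at 7.81, 7.54 and 6.95 CPM in the mouse Dux clone and 102, 98.4 and 108 CPM in the human DUX4 clone (log2 fold change −3.79, SE 0.0697, adjusted p = 9.30e-19). For these 4 Wnt genes the libraries of the clones did not overlap, where 36.1% of all genes lay wholly higher and 36% wholly lower.

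Among 42 TGF-beta and BMP genes listed 35 were tested, with a median of 0.42. Of these 19 (54.3%, against 33.1% of all genes) were higher and 11 (31.4%, against 33.3%) lower. Of the higher genes, 2 named here restrain this signalling. Nog, which encodes the antagonist noggin, had 0.849, 1.39 and 1.91 CPM in the mouse Dux clone and no count in the human DUX4 clone. Bambi, a decoy receptor, had 2.72, 2.21 and 2.17 CPM in mouse Dux libraries against 2 counts in human DUX4 libraries (ratio 52.1, 95% exact interval 14.1 to 436). Both were at or near 0 in human DUX4 libraries. Inhbb, a subunit of activin and inhibin, was lower, at 34.5, 32.4 and 32.7 CPM in the mouse Dux clone and 255, 252 and 268 CPM in the human DUX4 clone (log2 fold change −2.96, SE 0.0629, adjusted p = 5.79e-18). Tgfbr3, the co-receptor betaglycan, was lower too (log2 fold change −3.05, SE 0.141). Of 17 Notch genes tested, of 21 listed, 11 (64.7%, against 33.1% of all genes) were higher and 3 (17.6%, against 33.3%) lower. The receptor gene Notch1 had 44.9, 54.6 and 59.3 CPM in mouse Dux libraries against 17.8, 17.2 and 13.7 CPM in human DUX4 libraries (log2 fold change 1.70, SE 0.163, adjusted p = 2.15e-08). The ligand gene Jag1 had 9.17, 11.1 and 12 CPM in the mouse Dux clone against 43.1, 41.6 and 42.9 CPM in the human DUX4 clone (log2 fold change −1.97, SE 0.0993), so receptor and ligand differed in direction.

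Cytokine, chemokine and interferon genes differed in both directions, at low and at substantial levels. Of 32 cytokine and chemokine genes listed 24 were tested, and 11 (45.8%, against 33.1% of all genes) were higher and 7 (29.2%, against 33.3%) lower. Cxcl5, a neutrophil-attracting chemokine gene, had 18.2, 15.3 and 17.3 CPM in mouse Dux libraries and 0.938, 1.09 and 1.06 CPM in human DUX4 libraries (log2 fold change 4.03, SE 0.194, adjusted p = 8.66e-13). Of the more abundant members, chosen after their values were seen, the chemokine receptor gene Cxcr4 had 129, 118 and 118 CPM in mouse Dux libraries against 8.76, 8.46 and 9.66 CPM in human DUX4 libraries (log2 fold change 3.77, SE 0.0983), and the luciferase clone had 122 ± 5.51 CPM. Its ligand gene Cxcl12 had 135, 134 and 133 CPM in mouse Dux libraries against 32.8, 34.4 and 34.5 CPM in human DUX4 libraries (log2 fold change 1.98, SE 0.0598), and the luciferase clone had 3.19 ± 0.567 CPM. These 3 genes were higher in every mouse Dux library, as 36.1% of all genes were. Lif, the leukemia inhibitory factor, had 1.95, 2.38 and 3.06 CPM in mouse Dux libraries against 21.6, 23.3 and 21.4 CPM in human DUX4 libraries (log2 fold change −3.14, SE 0.117, adjusted p = 1.85e-14). Il1rl1, the receptor of interleukin-33, had 0.17, 0.174 and 0.127 CPM in the mouse Dux clone against 5.94, 3.78 and 3.85 CPM in the human DUX4 clone (log2 fold change −4.79, SE 0.36). Lif and Il1rl1 were lower in every mouse Dux library, as 36% of all genes were. Tnfrsf11b, the decoy receptor osteoprotegerin, had 2.72, 1.92 and 2.1 CPM in the mouse Dux clone and no count in the human DUX4 clone (at least 32.8-fold higher). Of 40 interferon and antigen presentation genes listed 34 were tested, and their median was −0.18. Of these 8 (23.5%, against 33.1% of all genes) were higher and 13 (38.2%, against 33.3%) lower. Iigp1, an interferon-inducible GTPase gene, had 0.0849, 0.058 and 0.191 CPM in mouse Dux libraries against 4.82, 4.55 and 6.26 CPM in human DUX4 libraries (log2 fold change −5.43, SE 0.322).

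The summed level of collagen genes was lower in the mouse Dux clone, while their direction depended on the gene, as among all genes. Of 40 collagen genes listed 31 were tested, and 9 (29.0%, against 33.1% of all genes) were higher and 14 (45.2%, against 33.3%) lower, with a median of −0.06, or −0.13 with low-count genes at their bound. Col1a1 (chromosome 11, 94936224 to 94953042), the main chain of type I collagen, had 11.6, 8.35 and 7.71 CPM in mouse Dux libraries and 692, 607 and 632 CPM in human DUX4 libraries (log2 fold change −6.15, SE 0.149, adjusted p = 2.56e-17), and both lay under the 6158 ± 132 CPM of the luciferase clone. Its partner chain gene Col1a2, chosen after its values were seen, was lower too (log2 fold change −1.11, SE 0.0578). Col11a1, a chain of a minor fibrillar collagen, had 0.509, 0.406 and 0.574 CPM in the mouse Dux clone against 22, 20.3 and 19.6 CPM in the human DUX4 clone (log2 fold change −5.37, SE 0.163). Summed collagens stood at 8093, 9285 and 9331 CPM in mouse Dux libraries, 15140, 14500 and 14110 CPM in human DUX4 libraries and 24170 to 24470 CPM in luciferase libraries. Mouse Dux library 1 had the lowest sum.

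Glycoproteins and proteoglycans of the matrix numbered 15 higher (36.6%, against 33.1% of all genes) and 19 lower (46.3%, against 33.3%) of 41 tested (48 listed). Ogn (chromosome 13, 49608015 to 49624501), the small proteoglycan osteoglycin, had 1853, 1687 and 1697 CPM in mouse Dux libraries and 140.1, 138 and 142 CPM in human DUX4 libraries (log2 fold change 3.64, SE 0.0593, adjusted p = 2.06e-19), close in the mouse Dux clone to the 2249 ± 54.2 CPM of the luciferase clone. Aspn, its neighbour on chromosome 13 and a related proteoglycan gene, had 13.5, 12 and 12.6 CPM in the mouse Dux clone against 1.06, 1.54 and 0.905 CPM in the human DUX4 clone (log2 fold change 3.41, SE 0.183), both far below the 586 ± 8.36 CPM of the luciferase clone. Ctgf (chromosome 10, 24595442 to 24598683), a matricellular growth factor and a known target of YAP, was lower, at 1.78, 2.09 and 2.61 CPM in mouse Dux libraries against 101, 99.8 and 93 CPM in human DUX4 libraries (log2 fold change −5.48, SE 0.109, adjusted p = 2.87e-18). Ogn and its neighbour were thus higher in every mouse Dux library, as 36.1% of all genes were, and Ctgf lower, as 36% were. Prelp, a proteoglycan gene of connective tissue, had 13.2, 12.5 and 12.4 CPM in the mouse Dux clone against 102, 99.2 and 105 CPM in the human DUX4 clone (log2 fold change −3.01, SE 0.0724). The collagen-crosslinking oxidase gene Loxl2 had 9.34, 9.69 and 8.35 CPM in mouse Dux libraries against 82.2, 82.5 and 77.8 CPM in human DUX4 libraries (log2 fold change −3.15, SE 0.0947).

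Among 33 matrix proteases and inhibitors listed 30 were tested, and 8 (26.7%, against 33.1% of all genes) were higher and 16 (53.3%, against 33.3%) lower. Mmp2 (chromosome 8, 92827290 to 92853421), the gelatinase of mesenchymal cells, had 496, 489 and 492 CPM in mouse Dux libraries and 34.6, 34.8 and 35.7 CPM in human DUX4 libraries (log2 fold change 3.82, SE 0.0461, adjusted p = 4.11e-21). Luciferase libraries had 569 ± 10.4 CPM. The membrane-bound protease gene Mmp15 was also higher, at 9.59, 9.86 and 9.94 CPM in the mouse Dux clone against 1.13, 1.35 and 0.905 CPM in the human DUX4 clone (log2 fold change 3.10, SE 0.153). The libraries of the clones did not overlap for either protease, as for 36.1% of all genes in this direction. Adamts12, which encodes a secreted protease, was lower, at 1.02, 0.464 and 0.446 CPM in the mouse Dux clone against 22.3, 22.4 and 20.4 CPM in the human DUX4 clone (log2 fold change −5.15, SE 0.164). Its family member Adamts9 had 0.0849, 0.058 and 0.191 CPM in mouse Dux libraries against 7.07, 5.51 and 6.71 CPM in human DUX4 libraries (log2 fold change −5.74, SE 0.35). Both were lower in every mouse Dux library, as 36% of all genes were. Of the bone, cartilage and fat markers 11 were tested (18 listed), 5 higher (45.5%, against 33.1% of all genes) and 2 lower (18.2%, against 33.3%). These markers had a positive median of 1.52, while their summed level went the other way. The sums were 520, 513 and 515 CPM in mouse Dux libraries and 1270, 1257 and 1235 CPM in human DUX4 libraries, with Spp1 as the most abundant of them. Of 24 fibroblast and mesenchymal genes listed 19 were tested, and 9 (47.4%, against 33.1% of all genes) were higher and 6 (31.6%, against 33.3%) lower. Among them, Prrx1, a homeobox gene of limb mesenchyme, had 538, 514 and 506 CPM in the mouse Dux clone against 103, 102 and 107 CPM in the human DUX4 clone (log2 fold change 2.32, SE 0.053, adjusted p = 1.41e-17). Tbx18, a T-box gene, had 50.1, 50.7 and 47.7 CPM in mouse Dux libraries against 209.7, 199 and 192 CPM in human DUX4 libraries (log2 fold change −2.02, SE 0.0498).

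Cadherins and other adhesion molecules divided evenly, with 10 higher (43.5%, against 33.1% of all genes) and 10 lower (43.5%, against 33.3%) of 23 tested (36 listed). Cdh10, a type II cadherin gene, had 0.594, 0.638 and 0.574 CPM in mouse Dux libraries and 56.8, 56.8 and 59.3 CPM in human DUX4 libraries (log2 fold change −6.56, SE 0.161, adjusted p = 3.11e-17). L1cam, a neural adhesion gene, was higher, at 4.58, 5.22 and 5.03 CPM in the mouse Dux clone against 0.188, 0.192 and 0.151 CPM in the human DUX4 clone (log2 fold change 4.74, SE 0.286). The clustered protocadherins, neuronal adhesion genes that neighbour each other on chromosome 18, had a median of 0.88 over 37 tested (43 listed). Of the 37, 21 (56.8%, against 33.1% of all genes) were higher and 3 (8.11%, against 33.3%) lower. Their extremes were at low levels, such as Pcdhb12 at 1.78, 2.38 and 2.42 CPM in the mouse Dux clone and 0.125, 0.0641 and 0 CPM in the human DUX4 clone. Homologous exons within these clusters make the split of reads between members uncertain.

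Hox and imprinted genes were more often higher than lower in the mouse Dux clone. Of 42 Hox genes, which set position along the body axis, 22 were tested, with a median of 0.63. Of these 14 (63.6%, against 33.1% of all genes) were higher and the other 8 not called. Hoxa13 had 2.12, 2.15 and 1.72 CPM in mouse Dux libraries and 0.125, 0.128 and 0.302 CPM in human DUX4 libraries (log2 fold change 3.42, SE 0.365, adjusted p = 9.89e-08). Of 34 imprinted genes, which are expressed from one parental copy, 21 were tested, with a median of 0.60. Of these 11 (52.4%, against 33.1% of all genes) were higher and 2 (9.52%, against 33.3%) lower. The hydrolase-like gene Mest (chromosome 6, 30733506 to 30748466) had 37.2, 34.4 and 34 CPM in mouse Dux libraries against 0.751, 1.09 and 0.981 CPM in human DUX4 libraries (log2 fold change 5.22, SE 0.186, adjusted p = 1.02e-14). The zinc finger gene Zim1 had 4.58, 6.61 and 5.74 CPM in the mouse Dux clone against 0.25, 0.192 and 0 CPM in the human DUX4 clone (log2 fold change 5.13, SE 0.397), while the luciferase clone had 14.4 ± 2.31 CPM of Mest and 36.5 ± 4.15 CPM of Zim1.

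Metabolic genes outside sterol synthesis had their own extremes. Of 42 flavin monooxygenases and other xenobiotic genes listed 32 were tested, with a median of 0.53. Of these 17 (53.1%, against 33.1% of all genes) were higher and 9 (28.1%, against 33.3%) lower. Besides Fmo1, the glutathione transferase gene Gstt3 was higher, at 5.43, 6.09 and 5.67 CPM in mouse Dux libraries and 0.313, 0.962 and 1.13 CPM in human DUX4 libraries (log2 fold change 2.87, SE 0.274). Aldh1a3, which makes retinoic acid, was lower, at 0.594, 0.29 and 0.255 CPM in mouse Dux libraries against 7.51, 6.92 and 6.56 CPM in human DUX4 libraries (log2 fold change −4.26, SE 0.229). Of 33 glycolysis and hypoxia genes 17 (51.5%, against 33.1% of all genes) were higher and 6 (18.2%, against 33.3%) lower, with a median of 0.18. Ldhb, a lactate dehydrogenase subunit, had 4.25, 4.12 and 3.89 CPM in the mouse Dux clone against 0.125, 0.256 and 0.0754 CPM in the human DUX4 clone (log2 fold change 4.63, SE 0.318). The hexokinase gene Hk2 had 16, 15.1 and 15.7 CPM in mouse Dux libraries against 42, 41.2 and 38.6 CPM in human DUX4 libraries (log2 fold change −1.38, SE 0.0721). The stress-responsive gene Ndrg1 was the lowest of this list (log2 fold change −1.50, SE 0.0527).

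Immediate early genes, which answer growth factors and stress within minutes, were more often lower. Of 28 such genes 3 (10.7%, against 33.1% of all genes) were higher and 16 (57.1%, against 33.3%) lower, with a median of −0.39. Dusp4, a phosphatase that switches off MAP kinases, had 14.3, 17 and 17.1 CPM in mouse Dux libraries and 96.1, 97.2 and 91.9 CPM in human DUX4 libraries (log2 fold change −2.55, SE 0.0815, adjusted p = 1.81e-15). Its relative Dusp6 had 8.91, 6.85 and 7.26 CPM in the mouse Dux clone against 32.6, 33.3 and 35 CPM in the human DUX4 clone (log2 fold change −2.15, SE 0.0913). The Krüppel-like factor gene Klf4 had 27.3, 28.3 and 27.5 CPM in mouse Dux libraries against 124, 128 and 133 CPM in human DUX4 libraries (log2 fold change −2.21, SE 0.0774). All 3 were lower in every mouse Dux library, as 36% of all genes were. Jun, a subunit of AP-1, was higher, at 122, 106 and 110.4 CPM in the mouse Dux clone against 65.2, 68.2 and 72.6 CPM in the human DUX4 clone (log2 fold change 0.71, SE 0.0591).

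Few targets of Dux and DUX4 were called between the uninduced clones, and their levels varied widely, down to almost no counts. Of 61 genes of the 2-cell stage listed 53 were in the count table and 47 were tested, of which 6 were higher, 5 lower and 36 not called, with a median of 0.39. Of the 47, 16 had at most 3 counts in both clones. Of 43 mouse counterparts of human DUX4 targets listed 35 were in the table and 25 were tested, of which 1 was higher, 4 lower and 20 not called, with a median of 0, or −0.23 with low-count genes at their bound. Both shares lie below those among all genes, and low counts limit what could be called. Several members of the second list, such as Uts2, Ctsq, C8b, Pcp4, Gad1 and Tmem92, were picked from earlier results of these data. Zscan4c, a zinc finger gene that marks the 2-cell stage and was chosen after its values were seen, had 46, 51 and 49 counts in mouse Dux libraries, 40, 37 and 43 in human DUX4 libraries and 57, 51 and 53 in luciferase libraries, with no difference called between the first 2 clones (log2 fold change 0.29, SE 0.144, adjusted p = 0.142). The endogenous Dux gene had 1, 2 and 0 counts in mouse Dux libraries against 3, 0 and 1 in human DUX4 libraries, and reads of the codon-altered transgenes were not analysed here.

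The 4 most counted members of these lists differed by less than 2-fold. Ptgr1, a prostaglandin reductase gene, had 62.1, 59.5 and 60.1 CPM in mouse Dux libraries against 86.3, 88.3 and 88.9 CPM in human DUX4 libraries (log2 fold change −0.54, SE 0.0554, adjusted p = 6.23e-08). Fam208b had 54.4, 62.2 and 58.8 CPM in the mouse Dux clone against 90.7, 88.4 and 80.1 CPM in the human DUX4 clone (log2 fold change −0.56, SE 0.138, adjusted p = 0.00145), and the zinc finger gene Zfp217 had 32.4, 37 and 38.1 CPM in the mouse Dux clone against 44.2, 43.9 and 40.4 CPM in the human DUX4 clone (log2 fold change −0.25, SE 0.0907, adjusted p = 0.0195). The libraries of the clones did not overlap for these 3 genes, as for 36% of all genes in this direction. The call of Zfp217 ended with scaling by library size alone (adjusted p = 0.0708) and without mouse Dux library 1 (adjusted p = 0.0916), human DUX4 library 1 (adjusted p = 0.0612) or human DUX4 library 2 (adjusted p = 0.0546). Pramef8, on both lists, was higher, at 35.3, 36.5 and 38.7 CPM in mouse Dux libraries against 30.8, 31.9 and 31.8 CPM in human DUX4 libraries (log2 fold change 0.23, SE 0.0602, adjusted p = 0.00247). Summed levels were 202, 211 and 211 CPM in mouse Dux libraries against 292, 291 and 286 CPM in human DUX4 libraries for the counterparts of DUX4 targets. The 2-cell-stage genes summed to 119, 107 and 110.3 CPM in the mouse Dux clone and 99.2, 101 and 101 CPM in the human DUX4 clone.

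A few members of these lists differed by more. Duxbl3 (chromosome 14, 26257945 to 26269434), a Dux-like gene of a multicopy family, had 9, 24 and 6 counts in mouse Dux libraries and 423, 370 and 369 in human DUX4 libraries (log2 fold change −4.88, SE 0.191, adjusted p = 3.83e-14), with 126, 109 and 75 in luciferase libraries. The gene model Gm2022, one of several near-identical 2-cell genes, had 4.58, 3.19 and 3.57 CPM in mouse Dux libraries against 11.3, 11.4 and 11.2 CPM in human DUX4 libraries (log2 fold change −1.61, SE 0.131). Its copy Gm8300 had 4.25, 3.77 and 4.27 CPM in the mouse Dux clone against 11.9, 10.1 and 9.2 CPM in the human DUX4 clone (log2 fold change −1.36, SE 0.141). All 3 were lower in every mouse Dux library, as 36% of all genes were. Usp17le, of the Usp17 deubiquitinase family, was higher, at 20, 33 and 26 counts in the mouse Dux clone against 1, 6 and 3 in the human DUX4 clone (log2 fold change 2.94, SE 0.308, adjusted p = 7.96e-08). Ddit4l, a stress-induced inhibitor of mTOR signalling, had 14, 14.8 and 11.9 CPM in mouse Dux libraries against 0.626, 0.385 and 0.302 CPM in human DUX4 libraries (log2 fold change 4.90, SE 0.182, adjusted p = 1.74e-14). The luciferase clone stood with the mouse Dux clone at 11.1 ± 0.414 CPM. How reads were shared between the near-identical copies of Duxbl3, Usp17le, Gm2022 and Gm8300 is not stated in these sources.

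In absolute level the largest differences were in abundant housekeeping, cytoskeletal and matrix genes. The elongation factor gene Eef1a1 had 10510, 10290 and 10030 CPM in mouse Dux libraries and 7159, 7233 and 7118 CPM in human DUX4 libraries (log2 fold change 0.52, SE 0.0464, adjusted p = 8.05e-09). Vimentin (Vim), the intermediate filament of mesenchymal cells, had 5536, 5432 and 5355 CPM in the mouse Dux clone against 4149, 3896 and 4079 CPM in the human DUX4 clone (log2 fold change 0.43, SE 0.0579). Thrombospondin 1 (Thbs1) had 2905, 3405 and 3342 CPM in mouse Dux libraries against 2303, 2217 and 2167 CPM in human DUX4 libraries (log2 fold change 0.53, SE 0.0952). These 3 genes were higher in every mouse Dux library, as 36.1% of all genes were, by less than 2-fold. Beta-actin (Actb) was lower, at 2264, 2202 and 2205 CPM in the mouse Dux clone against 4144, 3821 and 4075 CPM in the human DUX4 clone (log2 fold change −0.85, SE 0.0687, adjusted p = 1.85e-09). Lysyl oxidase (Lox), which crosslinks collagen, was lower as well, at 1287, 1255 and 1232 CPM in the mouse Dux clone and 3039, 2929 and 2954 CPM in the human DUX4 clone (log2 fold change −1.24, SE 0.0406, adjusted p = 2.59e-15). The alpha-tubulin genes Tuba1a, Tuba1b and Tuba1c were lower, with log2 fold changes of −0.80, −0.97 and −0.93. They lie side by side on chromosome 15 and share much sequence, so the split of reads between them is uncertain, as it is for Eef1a1 and Actb and their pseudogenes.

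Some differences followed position in the genome. The median log2 fold change was −0.34 on chromosome 5, where 124 genes were higher and 483 lower of 856, and −0.33 on chromosome 10, with 134 higher and 361 lower of 672. Chromosome 15 had a median of −0.23 (145 higher and 292 lower of 567) and chromosome 17 of −0.22 (152 higher and 332 lower of 666). Chromosome 19 went the other way, with a median of 0.37 and 271 higher and 58 lower of 463. Chromosome 5 had centred library medians of −0.17, −0.17 and −0.16 in mouse Dux libraries against 0.18, 0.18 and 0.17 in human DUX4 libraries, and chromosome 19 of 0.19, 0.17 and 0.19 in mouse Dux libraries against −0.17, −0.17 and −0.18 in human DUX4 libraries. All other chromosomes had medians between −0.03 and 0.15, and of all genes tested 33.1% were higher and 33.3% lower. The spread of a chromosome's median between libraries, as the root of the summed variances within both clones, was at most 0.0229 on the log2 scale. The 5 chromosomes named first had medians of at least 0.2 in size. In windows of 25 neighbouring tested genes their median was negative in 32 of 34 windows on chromosome 5 and 25 of 26 on chromosome 10. It was negative in 18 of 22 on chromosome 15 and 25 of 26 on chromosome 17, and positive in 18 of 18 on chromosome 19. A steady sign was not particular to them, since chromosome 9, with a median of 0.15, was positive in 26 of 30 windows and negative in 2. With every counted gene kept, low counts included, the medians of chromosomes 10, 15 and 17 were smaller, at −0.15, −0.092 and −0.066. Copy number of the DNA was not measured.

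One stretch of chromosome 8, chosen after the windows were seen, was higher in the mouse Dux clone. It runs through 6 windows, 78505269 to 103347534, and of its 151 tested genes 134 were higher and 5 lower, with a median log2 fold change of 0.90. The rest of chromosome 8 had 175 higher and 175 lower of 563 and a median of 0.0041. Mmp2, Mmp15 and Gins3, described above, lie in this stretch, and Spp1 lies on chromosome 5 and Myf5 and Ctgf on chromosome 10. Other named genes went against the median of their chromosome, such as Ppp1r14c and Rgs17 on 10 and Khdrbs3 on 15, all higher. Strongly called genes numbered 28 higher and 32 lower on chromosome 5, 40 and 22 on 10, 30 and 29 on 15, 33 and 14 on 17, and 32 and 5 on 19. Among all genes 801 (5.89%) were strongly higher and 430 (3.16%) strongly lower. Strongly higher genes outnumbered strongly lower ones on chromosomes 10, 15 and 17, as among all genes, though these chromosomes had negative medians. Whether large differences followed the chromosome medians was not tested. Against the luciferase clone, whose comparisons share libraries with the main one, the stretch had a median of 1.37 in the mouse Dux clone and 0.55 in the human DUX4 clone. For chromosome 19 these medians were 0.32 in the mouse Dux clone and −0.08 in the human DUX4 clone, and for chromosome 5 −0.04 in the mouse Dux clone and 0.21 in the human DUX4 clone. They were −0.29 in the mouse Dux clone and −0.03 in the human DUX4 clone for chromosome 10, and −0.41 in the mouse Dux clone and −0.13 in the human DUX4 clone for chromosome 15.

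**Figure D4:**
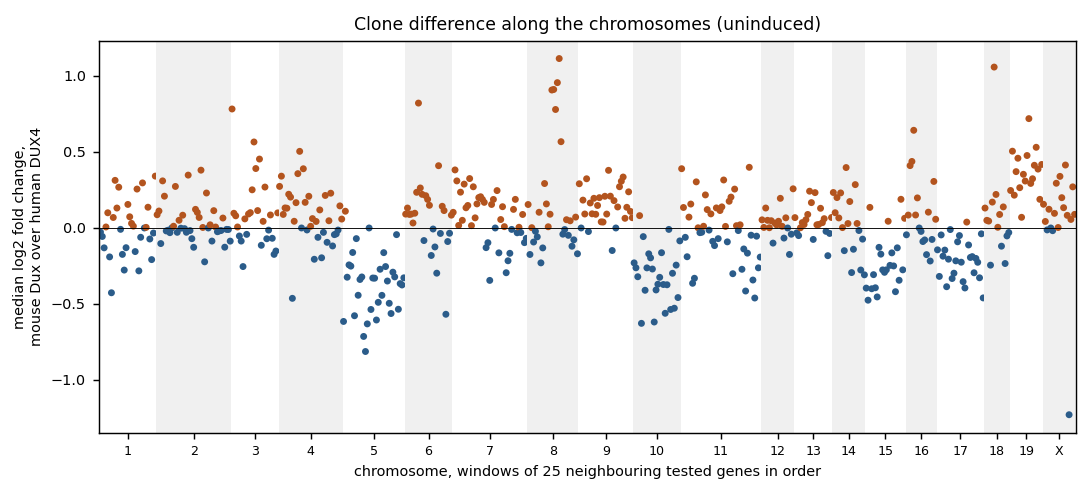
Median log2 fold change of the mouse Dux clone over the human DUX4 clone, uninduced, in 534 windows of 25 neighbouring tested genes ordered along chromosomes 1 to 19 and X, with 1 dot per window. Chromosomes 5, 10, 15 and 17 lie mostly below 0 and chromosome 19 wholly above it, with a raised run of windows on chromosome 8 near 0.90 and a single low window on X at −1.23.

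The induced cultures of the same clones gave a second set of libraries, in which the switched-on transgene differed too. Of the 801 genes strongly higher in the uninduced mouse Dux clone 736 (91.9%) also had a positive log2 fold change between the induced clones, where 52.7% of all genes tested did. Of the 430 strongly lower genes 382 (88.8%) had a negative one, where 47.2% of all did. Igfbp3 stood at 270.1 ± 13.9 CPM in the induced mouse Dux clone and 0.0895 ± 0.0368 CPM in the induced human DUX4 clone (SD, n = 3 each). Myod1 had 88.1 ± 10.6 CPM in the induced mouse Dux clone against 3.67 ± 0.907 CPM in the induced human DUX4 clone (log2 fold change 4.58). That difference was larger than the one without doxycycline by 2.36 on the log2 scale (SE 0.149, adjusted p = 5.25e-11 for the difference between both). Cacna2d2 had 0.0469 ± 0.0409 CPM in the induced mouse Dux clone against 35.5 ± 2.49 CPM in the induced human DUX4 clone. Chromosome medians between the induced clones were −0.35 on chromosome 5, −0.24 on 10, −0.30 on 15, −0.19 on 17 and 0.42 on 19, and the chromosome 8 stretch had 0.71.

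Of the 29 gene lists 14 had medians of the other sign between the induced clones. Sarcomere genes had a median of −0.10 with doxycycline, clustered protocadherins one of −0.47 and flavin monooxygenase and other xenobiotic genes one of −0.67, where all 3 medians were positive without it. Replication genes, lower without doxycycline, had a positive median of 0.78 between the induced clones, and mitosis genes one of 1.30. Immediate early genes had medians of −0.39 without and 1.69 with doxycycline. Cholesterol synthesis genes stayed lower, with a median of −1.45. Fmo1 and Spp1 reversed: the induced mouse Dux clone had 11.7 ± 1.26 CPM of Fmo1 against 167 ± 7.7 CPM in the induced human DUX4 clone, and 1548 ± 114 CPM of Spp1 against 44.8 ± 2.74 CPM in the induced human DUX4 clone.

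**Figure D5:**
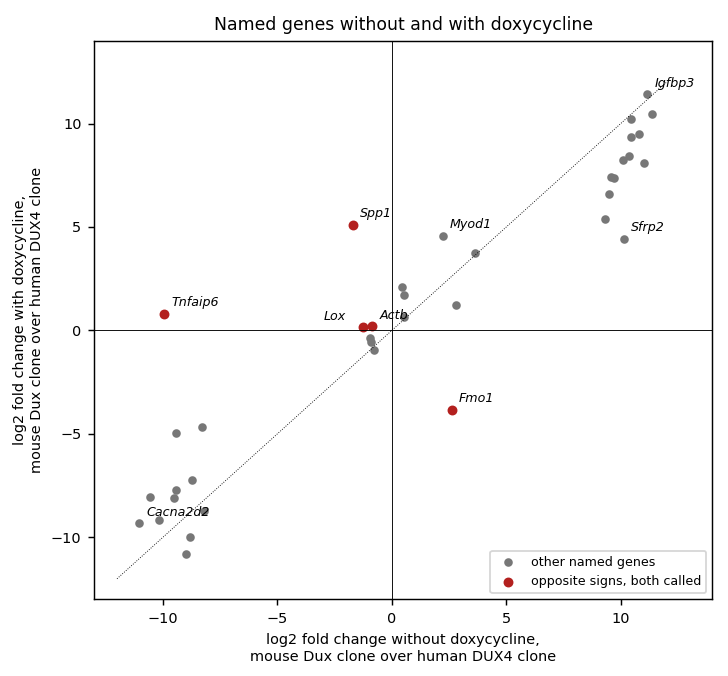
Log2 fold change of the mouse Dux clone over the human DUX4 clone without doxycycline (horizontal) and with it (vertical) for 38 of the named genes, with 1 point per gene, a dotted line of equality and labels for some. Most points lie in the upper right or lower left, while Fmo1, Spp1, Tnfaip6, Actb and Lox, in red, have opposite signs that were called in both.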

How the data were processed

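The authors deposited whole-number counts of reads per gene for 18 libraries, named by gene symbol and Entrez number. The submitters' processing notes name mm10, Bowtie2 2.2.3, TopHat2 2.0.12 and CASAVA. No source used here gives the counting program, annotation or strand setting, so overlapping and antisense genes cannot be told apart. Gene positions and promoter sequences came from RefSeq tables of GRCm38.p6, and 99.7% of genes had a position. The members, gene lists and rules were chosen with earlier results of these data known.

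From the deposited counts, genes were kept by edgeR's filterByExpr over 6 groups, scaled by TMM and fitted in 1 model of 18 libraries (edgeR 4.0.16, R 4.3.3). The mouse Dux over human DUX4 contrast was tested with the quasi-likelihood F test, or glmTreat for a 2-fold minimum, with Benjamini-Hochberg adjustment at 0.05. The SE is the log2 fold change divided by the root of F. The fit was tested on simulated data with the same spread for all genes and no outlying library. That test thus does not cover the effect of mouse Dux library 1. Tables were handled in Python 3.11.15 with pandas 2.3.3. Named genes are Myod1, Fmo1 and Spp1, the 12 highest and 12 lowest strongly called genes with at least 10 CPM, up to 8 almost absent genes each way, up to 3 called genes at each end of every list, up to 6 most counted members of both target lists and the 5 largest CPM differences each way. Same-numbered libraries of the clones had deviations correlated at −0.16, 0.10 and −0.17 over 9524 genes, so numbers were not used as pairs. Alternatives were other scalings, filters, library sets, a replicate block, DESeq2 1.42.0 and leaving out each library. Reads of the transgenes were not analysed here. A few genes that this rule also takes are not reported here.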

Additional observations from a re-analysis of the deposited data

Results flagged for a closer look

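For 38 named genes the clone difference without doxycycline was compared with that between the induced clones of the same lines, by a contrast in the edgeR fit with Benjamini-Hochberg adjustment. In 5 of them the signs were opposite and called in both. The switched-on transgene also differs between the induced clones, and what drives the reversals was not tested. Groups of 3 libraries are too small for a test of single outlying libraries.

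Fmo1 had a log2 fold change of 2.61 without doxycycline and −3.83 with it, a difference of 6.44 (SE 0.0883, adjusted p = 2.11e-20). Spp1 went the opposite way, with −1.69 without and 5.11 with doxycycline (difference −6.81, SE 0.0824, adjusted p = 4.24e-21). Tnfaip6, almost absent from the uninduced mouse Dux clone, had −9.93 without, a value that depends on the fit at 3 counts, and 0.81 with doxycycline (difference −10.74, SE 0.282, adjusted p = 2.69e-15). Actb had −0.85 without and 0.21 with doxycycline (difference −1.06, SE 0.0968, adjusted p = 1.12e-08). Lox had −1.24 without and 0.16 with doxycycline (difference −1.41, SE 0.0569, adjusted p = 7.95e-14). The small values of Actb and Lox with doxycycline depend on the scaling. TMM factors were 0.896 to 0.908 in induced mouse Dux libraries and 0.992 to 0.997 in induced human DUX4 libraries. Other scalings were not tried for the induced clones.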

How the results depend on the processing

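Among 186 named genes, 2545 of 2572 recomputed single-gene results kept their direction and call, 27 kept the direction and lost the call, and none turned round. Strongly called genes numbered 1231, against 931 with only the 6 compared libraries in the fit (930 shared), 1058 with the 9 uninduced libraries, 1517 without a filter, 1226 with the replicate block in all 18 libraries and 932 with it in 6. The replicate numbers pair nothing in the design, and the block moved no count of all calls by over 1.5 times. DESeq2 gave 805 strongly higher and 432 strongly lower. Calls of any size numbered 9237 of 12307 genes tested with only the 6 compared libraries, against 9030 of 13602 in the main fit. Scaling by library size alone moved the median of all genes to 0.063 and the higher share of calls to 55.2%, against 49.9%. From log2 1, 1579 were higher and 1030 lower, and against a 1.5-fold minimum 1853 and 1477. Almost absent genes in the human DUX4 clone were 125 from 1 CPM and 26 at no count, and 10 at no count in the mouse Dux clone. Library size alone gave 1 bone, cartilage or fat marker lower and 1 mitosis gene higher, as did the fits of 6 and 9 libraries for mitosis. Without a filter 2 markers of other cell types were lower and 2 DUX4-target genes higher, and in 6 libraries, with or without the block, 3 2-cell genes were lower. Leaving out single libraries gave 3 to 5 lower 2-cell genes (3 without mouse Dux library 1 or human DUX4 library 2), 1 to 3 lower bone, cartilage or fat markers (1 without mouse Dux library 1 or human DUX4 library 1), 1 to 3 lower markers of other cell types and 1 to 2 higher replication genes. Medians of chromosomes 5, 10, 15, 17 and 19 were −0.42, −0.41, −0.29, −0.26 and 0.31 from 5 CPM, −0.28, −0.27, −0.17, −0.16 and 0.43 by library size alone, and −0.25, −0.15, −0.092, −0.066 and 0.29 without a filter. In 6 libraries, with or without the block, chromosome 15 had −0.25 and 17 had −0.21. Leaving out a library gave −0.36 to −0.34 for chromosome 5 and −0.33 to −0.31 for chromosome 10. The cause of these moves was not tested, and low counts limit calls among the target genes.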

Other observations

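Single windows of 25 neighbouring tested genes stood apart outside the chromosomes described above, and were chosen after their values were seen. On X, between Nxt2 and Pfkfb1 (142226770 to 150643878), 17 genes were lower in the mouse Dux clone and 3 higher of 26, with a median log2 fold change of −1.23 without doxycycline and −1.38 between the induced clones. Luzp4, a gene of this window, had 0.611 CPM in the mouse Dux clone, 12.01 CPM in the human DUX4 clone and 28.8 CPM in the luciferase clone, and the gene model Gm15097 had 0.450, 9.89 and 27.0 CPM in the mouse Dux, human DUX4 and luciferase clones. The window with the Hoxa genes on chromosome 6 had a median of 0.82, with 19 genes higher and 3 lower. Of all genes tested 33.1% were higher and 33.3% lower. The protocadherin window on chromosome 18 had a median of 1.06 without doxycycline and of −0.0029 between the induced clones. Without doxycycline, medians were smaller in size in wider windows of about 51 genes. The one with the X stretch had −0.049, with 12 genes higher and 20 lower of 52. The one with the Hoxa genes had 0.28, and those with protocadherins had 0.38 and 0.14.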
